A study of Drosophila melanogaster with 6 samples.

Results

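The 86 genes described here are the long noncoding RNA (lncRNA) genes of Drosophila with appreciable RNA in S2 cells. They were chosen by name and level: rows of the deposited table whose symbol begins with lncRNA: and whose mean over all 6 libraries was at least 3 CPM (a row's count over the column total, times 1000000), without the dosage compensation genes roX1 and roX2. The rule took 86 of 1931 lncRNA rows, in a table of 23882 genes and transposon copies. Of the lncRNA rows, 479 held no count in any library. The study compared 3 control libraries with 3 libraries after knockdown of Brr2, the helicase that unwinds U4 from U6 RNA during activation of the spliceosome. S2 is a line with macrophage-like features that was derived from embryos. Both groups carry the treatment label RNAi. The controls are labelled genotype WT, and the knockdown libraries are labelled as Brr2 knockdown. The protocol describes 8 µg of double-stranded RNA in medium without serum for 30 min, in cells grown at 25 °C, whereas the sample titles use the prefix sh. The labels do not name the target of the control RNA. Total RNA was depleted of ribosomal RNA, so transcripts without a poly(A) tail could enter the libraries. The labels do not say whether replicates were separate cultures, so each p-value weighs a difference against library-to-library spread that may be technical.

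Long noncoding RNAs are transcripts with no long conserved reading frame. In Drosophila some of them, such as the nuclear RNA of hsr-omega, gather RNA-binding proteins. Others are primary transcripts from which microRNAs or small nucleolar RNAs (snoRNAs) are cut, and many are known by a CR number only. A number of them are spliced, while others have no intron and do not need the spliceosome for their own processing. No role is given here for a gene known by its number alone.

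Library totals lay between 127654975 and 147620403 estimated counts. The targeted gene, listed as l(3)72Ab, fell to 52.3% of its control level (log2 fold change -0.93, edgeR adjusted p = 0.0111). Levels below are CPM scaled by edgeR's trimmed mean of M-values (TMM), given as mean ± SD with n = 3 per group. Of the hemocyte markers, srp was at 84.3 to 116.2 CPM and Col4a1 at 297.2 to 1181 CPM, whereas Hml, NimC1 and, in control libraries, He had group means under 1 CPM. Of the markers of other cells, tj, Lsp2 and nSyb were at or near 0, whereas elav was at 22.1 to 32.0 CPM, brp at 12.3 to 20.4 CPM and aub at 10.1 to 90.7 CPM. Control replicate 1 stood apart in heat shock RNA: the 14 heat shock genes listed with hsr-omega summed to 6894 CPM there, the highest of the control libraries, whose lowest sum was 1892 CPM. In the knockdown libraries the sums were 1751 to 2570 CPM. In bulk libraries, fewer cells that carry an RNA and less of that RNA per cell cannot be told apart.

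After Brr2 knockdown 14 of the 86 lncRNA genes rose and 13 fell, and 59 did not pass the test. The called share of 31.4% stood beside 16.8% of the 14167 features tested, of which 8.31% were higher and 8.53% lower. Antisense RNA genes at the same level had 16 of 75 called (21.3%), and protein-coding genes had 1476 of 6801 (21.7%). The median log2 fold change of the lncRNA genes was -0.06, beside 0.01 for all features. In 41 of the 86 genes (47.7%) the groups did not overlap, beside 41.3% of all features tested. Increases reached a log2 fold change of 3.68 and decreases one of -2.39. All 86 genes passed the filter on low counts. In 14 of them 1 group mean lay under the level of 3 CPM, and 3 of those 14 were called. In the other 72 both group means were at the level, and 24 were called. The test was edgeR's quasi-likelihood test, adjusted over all 14167 features at a threshold of 0.05. It used no term for the replicate number (a replicate block), and results with such a block are named as such.

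The split between directions depended on the scaling. With total counts as the only scaling, which shifted the median log2 fold change of all features by -0.34, 9 lncRNA genes were higher and 27 lower. The number of called lncRNA genes was 10 without knockdown replicate 1, 12 without knockdown replicate 3, 11 without control replicate 1 and 14 without control replicate 2.

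**Figure D1:**
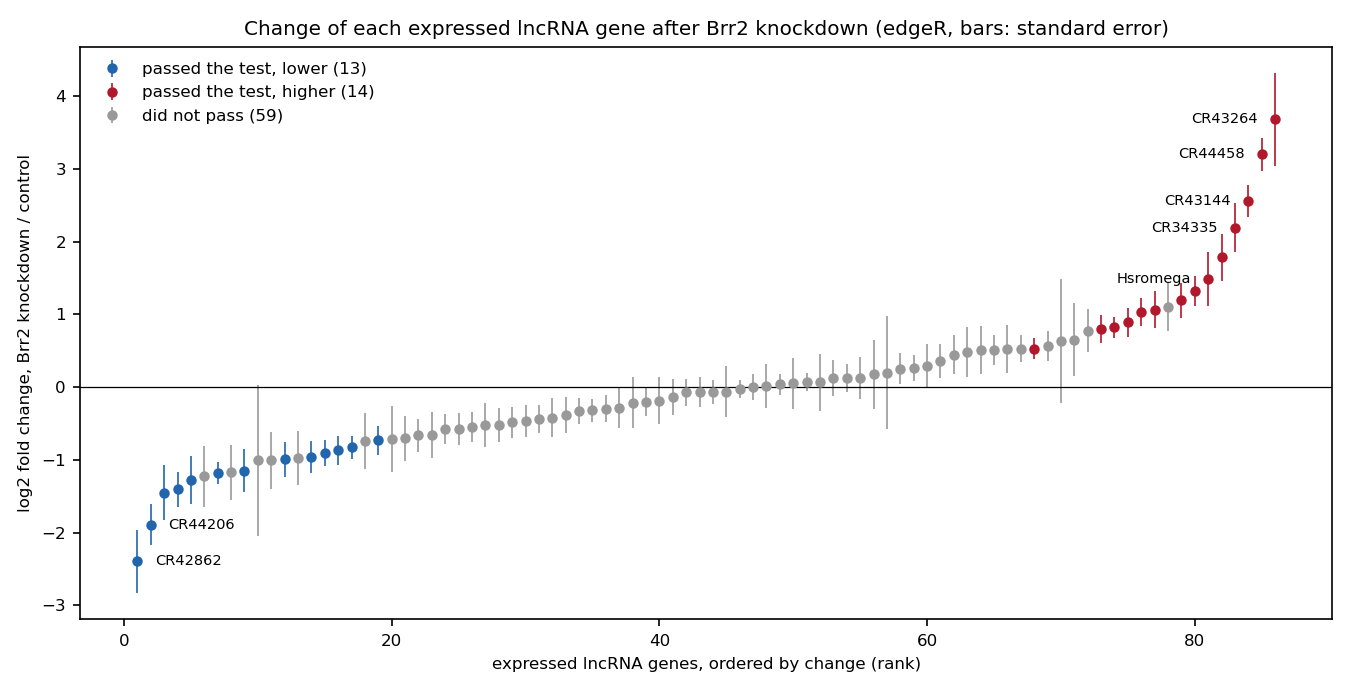
Log2 fold change of each of the 86 lncRNA genes after Brr2 knockdown (vertical axis, edgeR, bars are standard errors), ordered along the horizontal axis by change. The 14 genes that rose reached 3.68 and the 13 that fell reached -2.39; the 59 genes in grey did not pass the test.

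Most of the lncRNA signal came from few genes. The median of the 86 genes, without scaling, was 7.54 CPM, 51 genes lay under 10 CPM, and 9 lay over 100 CPM. The highest, lncRNA:Hsromega, had 2003 CPM. Of the 9 genes over 100 CPM, 5 rose (Hsromega, CR34335, CR40469, CR43264 and CR43144), 2 fell (CR42862 and CR43334) and 2 did not pass the test (CR46489 and CR42491). CR43264 and CR43144 pass 100 CPM only through the knockdown libraries in which they are high, so this count partly follows from the choice of a mean over both groups and is a description. The 86 genes together held 0.428% ± 0.0398 of all counts in control libraries and 0.621% ± 0.162 in knockdown libraries; no test was made of this share. Hsromega took 28.3% ± 6.24 of that share in control libraries and 44.1% ± 3.57 in knockdown libraries. Per kb of exon the order was different. In control libraries CR40469 was at 937 and CR34335 at 824 CPM per kb, above CR42491 at 143, CR42862 at 142, CR43264 at 73.7 and CR43144 at 60.5 CPM per kb. In knockdown libraries CR34335 was at 3758, CR40469 at 3235, CR43264 at 946 and CR43144 at 357 CPM per kb. Hsromega, with 21710 exonic bases, stood at 51.5 and then 145 CPM per kb. CR34335, CR40469, CR43264 and CR43144 have 214 to 569 exonic bases, against a median of 1368.5 for all 86.

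Hsromega (FBgn0001234; BDGP6.54, chromosome 3R, 21296127 to 21317836, plus strand, up to 2 exons) is the hsr-omega gene, whose nuclear RNA collects hnRNP proteins in omega speckles and which is known for its strong response to heat. It was at 1577, 1082 and 698 CPM in control replicates 1, 2 and 3, and at 4219, 1975 and 3228 CPM in the knockdown replicates. The lowest knockdown library lay above the highest control library. The rise was 2.81-fold (log2 1.49, SE 0.366, edgeR adjusted p = 0.0345). The count is that of the whole gene, so its 7 annotated transcripts are not told apart. The call rested on several libraries: the adjusted p was 0.117 without knockdown replicate 1, 0.0885 without knockdown replicate 3, 0.111 without control replicate 2 and 0.0597 without control replicate 3. Without control replicate 1, the library with the high heat shock RNA, the log2 fold change was 1.83 and the call was kept (edgeR adjusted p = 0.0469).

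No heat shock gene passed the test beside Hsromega. Of 14 heat shock genes, 0 passed edgeR's test, 0 had an unadjusted p under 0.05 and 0 passed in DESeq2, and all 14 had a log2 fold change below 0 (median -1.46). The chaperone gene Hsp70Aa was at 504, 139 and 51.9 CPM in control libraries and 149, 51.2 and 72.4 CPM in knockdown libraries, so the groups overlapped. The small heat shock gene Hsp26 was at 697, 183 and 36.4 CPM and then at 157, 45.4 and 24.7 CPM, with control replicate 1 again far above the others. Without control replicate 1 the median of the 14 genes was -0.09, with 12 below 0 and 2 above, and none was called by edgeR. With a replicate block 2 of the 14, Hsp23 and Hsp26, passed as lower (edgeR adjusted p = 0.0125 and 0.0265). The reads of the nearly identical Hsp70 copies cannot be assigned with certainty.

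A second heat-inducible lncRNA gene, alphagamma-element:CR32865, lies as repeated copies among the Hsp70 genes and its counts are uncertain for the same reason. It was at 44.5, 4.7 and 5.2 CPM in control libraries and 9.6, 1.7 and 15.8 CPM in knockdown libraries. Control replicate 1 was the highest, and the groups overlapped (log2 -1.01, SE 1.03, edgeR adjusted p = 0.525). Without that library the log2 fold change was 0.87 and did not pass (edgeR adjusted p = 0.527).

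Proteins known to gather on hsr-omega RNA were looked at next. Of 10 genes for them, 0 passed edgeR's test (median log2 fold change -0.25), 3 had an unadjusted p under 0.05 and 2 passed in DESeq2. The hnRNP gene sqd had a log2 fold change of -0.48 (edgeR adjusted p = 0.128) and nonA, a gene for a nuclear RNA-binding protein, one of -0.52 (adjusted p = 0.0754). With a replicate block both passed as lower (adjusted p = 0.0487 and 0.0496). The largest positive value was 0.27, for TBPH, the homolog of TDP-43.

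**Figure D2:**
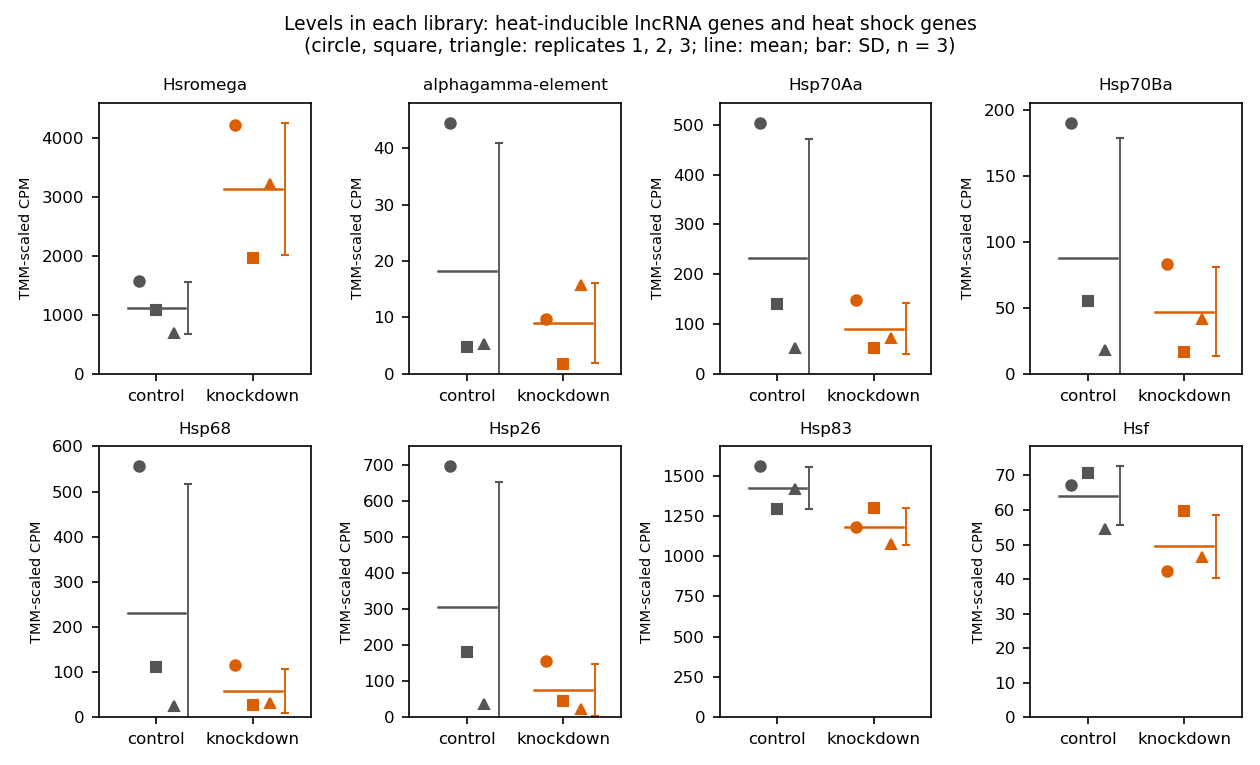
TMM-scaled CPM (vertical axes, linear, from 0) of Hsromega, the alphagamma-element gene and 6 heat shock genes in control and knockdown libraries; symbols are replicates 1, 2 and 3, lines are means and bars SD (n = 3, cut at 0 where they reach below it). Hsromega lies higher in every knockdown library, while Hsp70Aa, Hsp70Ba, Hsp68 and Hsp26 are highest in control replicate 1.

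The largest increase was that of CR43264 (FBgn0262945; BDGP6.54, chromosome X, 5831898 to 5832215, minus strand), a gene of 1 exon inside an intron of CG15765 on the opposite strand. It was at 34.0, 17.2 and 19.1 CPM in control libraries and at 589.2, 117.1 and 196.6 CPM in knockdown libraries. All knockdown libraries lay above all control libraries, but they differed widely among themselves. The fold was 12.8 (log2 3.68, SE 0.637, edgeR adjusted p = 0.0124), and the adjusted p was 0.0563 without control replicate 2. Without knockdown replicate 1 the log2 fold change fell to 2.74 (adjusted p = 0.0176). CG15765 itself was at 0.030 ± 0.028 CPM in control libraries and was not tested.

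CR44458 (FBgn0265651; chromosome 2R, 15371695 to 15372595, plus strand) was low in control libraries, at 1.2, 1.4 and 1.6 CPM. It reached 13.6, 10.0 and 14.5 CPM in knockdown libraries, well apart from the controls. The rise was 9.20-fold (log2 3.20, SE 0.222, edgeR adjusted p = 0.00201). CR44458 reached the level of 3 CPM only through the knockdown libraries, and it shares 246 exonic bases on the opposite strand with CR44459, whose level was 0.0225 ± 0.0145 CPM in the controls and 0.104 ± 0.0307 CPM after knockdown. The mismatch repair gene Pms2 lies 175 bases away on the opposite strand and rose as well, from 24.6 ± 0.469 to 33.3 ± 0.995 CPM (log2 0.44, adjusted p = 0.0289). Pms2 lost its call without any 1 library but control replicate 3 (0.059 to 0.11). Its log2 fold change was 0.10 when libraries were scaled by total counts only.

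CR43144 (FBgn0262620; chromosome 2L, 21657625 to 21658249, plus strand, 2 exons) was at 38.2, 36.8 and 28.4 CPM in control libraries and 262.6, 168.9 and 178.3 CPM in knockdown libraries. The groups were far apart (5.90-fold, log2 2.56, SE 0.219, edgeR adjusted p = 0.00239). It lies on the same strand as Cul2, a cullin scaffold of ubiquitin ligases, 486 bases away. Cul2 rose from 251 ± 27.6 to 914 ± 170 CPM (log2 1.86, adjusted p = 0.00268).

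The short and abundant genes CR34335 and CR40469 both rose. CR34335 (FBgn0267910; chromosome X, 3545750 to 3546110, minus strand) was at 371.8, 216.0 and 304.5 CPM in control libraries and 1802, 795.5 and 1472 CPM in knockdown libraries, a rise of 4.56-fold (log2 2.19, SE 0.337, edgeR adjusted p = 0.00941). It sits in an intron of DIP-alpha, an immunoglobulin-domain gene on the same strand, whose log2 fold change was -0.67 and did not pass (adjusted p = 0.125). CR40469 (FBgn0058469; chromosome X, 122493 to 122706, plus strand) was at 214.8, 138.9 and 247.8 CPM in control libraries and 923.4, 428.9 and 724.4 CPM in knockdown libraries. Both genes were lowest in replicate 2 and highest in replicate 1 within the knockdown group, as Hsromega was. The rise of CR40469 was 3.45-fold (log2 1.79, SE 0.325, edgeR adjusted p = 0.014), with an adjusted p of 0.0528 without control replicate 1.

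**Figure D3:**
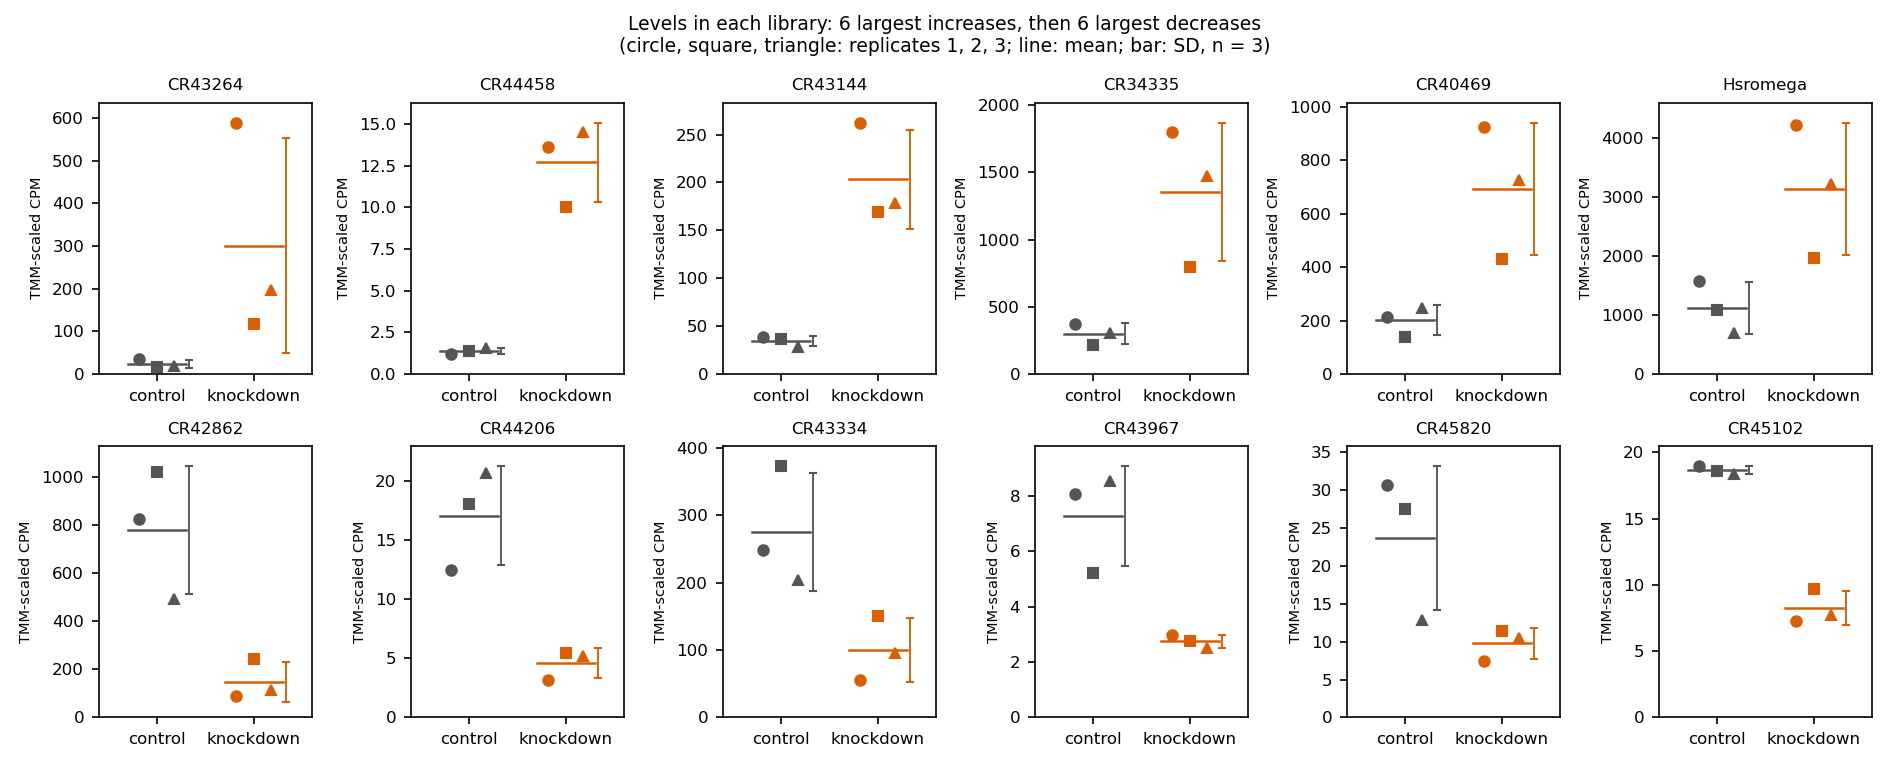
TMM-scaled CPM (vertical axes, linear, from 0) of the 6 lncRNA genes with the largest increases that passed the test (upper row) and the 6 with the largest decreases among those that passed the test (lower row); symbols are replicates 1, 2 and 3, lines are means and bars SD (n = 3). The groups do not overlap in any of the 12 panels, beside 41.3% of all features tested. This partly follows from the choice of genes that passed the test on these values. The knockdown libraries of CR43264 range from 117.1 to 589.2 CPM, while the control libraries of CR45102 lie between 18.3 and 19.0 CPM.

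Another 8 lncRNA genes rose by smaller amounts. CR45226, inside an intron of plum, rose from 3.65 ± 0.273 to 9.15 ± 2.00 CPM (log2 1.33, edgeR adjusted p = 0.00948). CR45018 rose from 15.6 ± 5.14 to 35.7 ± 5.03 CPM (log2 1.19), although it shares 1433 exonic bases on the same strand with IP3K2, an inositol phosphate kinase gene whose log2 fold change was -1.21 and did not pass (adjusted p = 0.0816). CR46110, inside an intron of the Fos gene kay, rose from 5.07 ± 1.09 to 10.4 ± 0.0864 CPM (log2 1.04), while kay had a log2 fold change of -0.08. CR45004 had a log2 fold change of 1.07, CR45223 of 0.89, CR46482 of 0.82, CR43973 of 0.80 and CR32385 of 0.53. CR45004 and CR45223 share exonic bases on the opposite strand with CG31678 and CG14322, so their values are uncertain. CG14322 rose as well (log2 0.84, edgeR adjusted p = 0.00866). CR46482 holds eIF4B, a translation initiation factor gene, in its intron, and eIF4B did not pass (log2 0.37, adjusted p = 0.105). With total counts as the only scaling, CR45004, CR46110, CR45223, CR43973 and CR32385 lost their calls (edgeR adjusted p = 0.0505 to 0.424). CR45226, CR45018 and CR46482 kept theirs. Of these 8 genes only CR45226 kept its call without each library in turn. CR45018 lost it without knockdown replicate 1 or control replicate 1 (adjusted p = 0.0735 and 0.0688), CR46110 without knockdown replicate 1 or 3 (0.0561 and 0.0553) and CR46482 without control replicate 1 (0.0501). CR45004 lost it without any library but control replicate 2 (0.0547 to 0.11), CR45223 without any but control replicates 2 and 3 (0.061 to 0.0954), CR43973 without any but control replicate 3 (0.074 to 0.106) and CR32385 without any 1 library (0.0717 to 0.123).

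The largest decrease was that of CR42862 (FBgn0262109; chromosome 3L, 224106 to 230964, plus strand, up to 4 exons). It was at 825, 1018 and 492 CPM in control libraries and at 87.6, 242 and 114 CPM in knockdown libraries. The groups did not overlap, and 19.0% of the control level was left (log2 -2.39, SE 0.436, edgeR adjusted p = 0.014). CG33229 shares 246 exonic bases with it on the same strand and moved the other way, from 72.3 ± 4.34 to 145 ± 23.3 CPM (log2 1.01, adjusted p = 0.00855). Reads in the shared stretch could fall to either gene, which leaves both values uncertain. The call of CR42862 was lost without knockdown replicate 1 or 3 or control replicate 1 or 2, with adjusted p between 0.0501 and 0.0538.

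CR45102 (FBgn0266549; chromosome X, 3701857 to 3703285, plus strand, 1 exon) had closely spaced control libraries. It was at 19.0, 18.6 and 18.3 CPM in control libraries and 7.30, 9.71 and 7.73 CPM in knockdown libraries, with a wide gap between the groups (log2 -1.18, SE 0.153, edgeR adjusted p = 0.00609). Mnt, a gene for a repressor that binds Max, lies 185 bases away on the same strand and fell by a like amount, from 31.1 ± 4.61 to 14.0 ± 4.78 CPM (log2 -1.16, adjusted p = 0.0224). The call of Mnt was lost without knockdown replicate 1 or 3 or control replicate 1 or 2 (0.0726 to 0.0857).

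CR43967 and CR45820 fell with the genes around them. CR43967 was at 8.06, 5.22 and 8.54 CPM and then at 2.97, 2.76 and 2.51 CPM (log2 -1.41, edgeR adjusted p = 0.0113), and CG34031, in whose intron it lies, fell from 7.31 ± 0.460 to 2.12 ± 0.714 CPM (log2 -1.78, adjusted p = 0.00872). CR45820 fell from 23.7 ± 9.48 to 9.79 ± 2.04 CPM (log2 -1.28), and Eip63E, a cyclin-dependent kinase gene around it, from 137 ± 32.8 to 74.4 ± 2.76 CPM (log2 -0.88). CR43493 (log2 -1.15) lies in an intron of the inositol phosphate kinase gene l(1)G0196, which fell with a log2 fold change of -0.65 (adjusted p = 0.039). The decreases of CR43883, CR44756, CR46483 and CR46450 were between -0.99 and -0.73 on the log2 scale. Eip63E and l(1)G0196 lost their calls without knockdown replicate 1 or 3 or control replicate 1 or 2 (0.0753 to 0.0848 and 0.115 to 0.14). CR44756 lies in an intron of Gp150, which did not pass (log2 -0.67, adjusted p = 0.0655).

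Among these 8 further decreases, CR43967 and CR45102 kept their call without each library in turn. CR46483 lost its call without knockdown replicate 1 or 3 or control replicate 2 (0.0537 to 0.0638), CR44756 without any library but control replicate 3 (0.0524 to 0.095), CR45820 likewise (0.0596 to 0.139), CR43493 likewise (0.0785 to 0.12), CR43883 without any 1 library (0.0547 to 0.0869), and CR46450 without any 1 library (0.0765 to 0.15) and in the fit with a replicate block (edgeR adjusted p = 0.05).

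Primary transcripts of microRNAs are a known class of lncRNA, and 10 of the 86 genes hold 13 microRNA genes. Of these 10 hosts, 4 fell and 1, Hsromega with mir-4951, rose, beside 8.53% lower and 8.31% higher of all features tested. Without Hsromega the median log2 fold change of the 9 hosts was -0.96, beside -0.06 for all 86 lncRNA genes. The groups did not overlap in 6 of these 9 hosts (66.7%), beside 41.3% of all features tested. The hosts are few, and no test was made of these shares. The microRNA rows themselves held 0 or 1 count in every library, so the values are those of the host transcripts and not of the mature microRNAs.

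CR44206 (FBgn0265104; chromosome 2R, 13329352 to 13344808, minus strand), the host of mir-184, was at 12.5, 18 and 20.7 CPM in control libraries and 3.12, 5.47 and 5.19 CPM in knockdown libraries. The groups were far apart, and 26.9% of the control level was left (log2 -1.89, SE 0.281, edgeR adjusted p = 0.00859). The call held without each library in turn.

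CR43334 (FBgn0286827; chromosome 3L, 628435 to 643900, plus strand) is the primary transcript of bantam, a microRNA that promotes growth and represses the death gene hid. It was at 249, 373 and 204 CPM in control libraries and 55.5, 150 and 96.0 CPM in knockdown libraries. The groups did not overlap, and 36.6% of the control level was left (log2 -1.45, SE 0.379, edgeR adjusted p = 0.0409). CR43334 shares exonic bases with another gene besides bantam, so reads there could fall to either gene and its value is uncertain. The call of CR43334 was lost without knockdown replicate 1 or 3 or control replicate 1 or 2 (adjusted p = 0.095 to 0.127).

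CR43651, the host of mir-14, a microRNA known to restrain cell death and fat storage, fell from 17.9 ± 4.28 to 9.21 ± 1.76 CPM (log2 -0.96, edgeR adjusted p = 0.0296). CR43857, the host of mir-275, fell from 8.41 ± 1.31 to 4.50 ± 0.195 CPM (log2 -0.90, adjusted p = 0.0175). CR43651 lost its call without any 1 library but control replicate 2 (0.0583 to 0.0939), and CR43857 without knockdown replicate 1 or 3 or control replicate 1 or 2 (0.0558 to 0.0699).

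The other 5 hosts did not pass the test. CR43650, the host of mir-8, the fly member of the miR-200 family, was at 21.8, 41.9 and 29.2 CPM and then at 6.07, 18.5 and 15.1 CPM, with no overlap (log2 -1.23, edgeR adjusted p = 0.0835). With a replicate block it passed (adjusted p = 0.0121), as in DESeq2 (adjusted p = 0.00986). CR31044, the host of mir-279 and mir-996, was at 15, 13 and 16.2 CPM and then at 3.45, 6.95 and 11.6 CPM, again with no overlap (49.9% of the control level, edgeR adjusted p = 0.121). CR43459, the host of mir-277 and mir-34, was at 84.4 ± 17.9 and 84.3 ± 7.63 CPM (log2 -0.00, SE 0.179). CR46194, the host of mir-281-1 and mir-281-2, had a log2 fold change of 0.51. It shares exonic bases with the protein-coding genes SmD3 and Oda, so its value is uncertain, and the annotation used here names it asRNA:CR46194. CR43626, the host of mir-282, had one of 0.64 that rested on knockdown replicate 3, at 20.5 CPM beside 3.09 and 2.1 CPM in the other knockdown libraries.

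**Figure D4:**
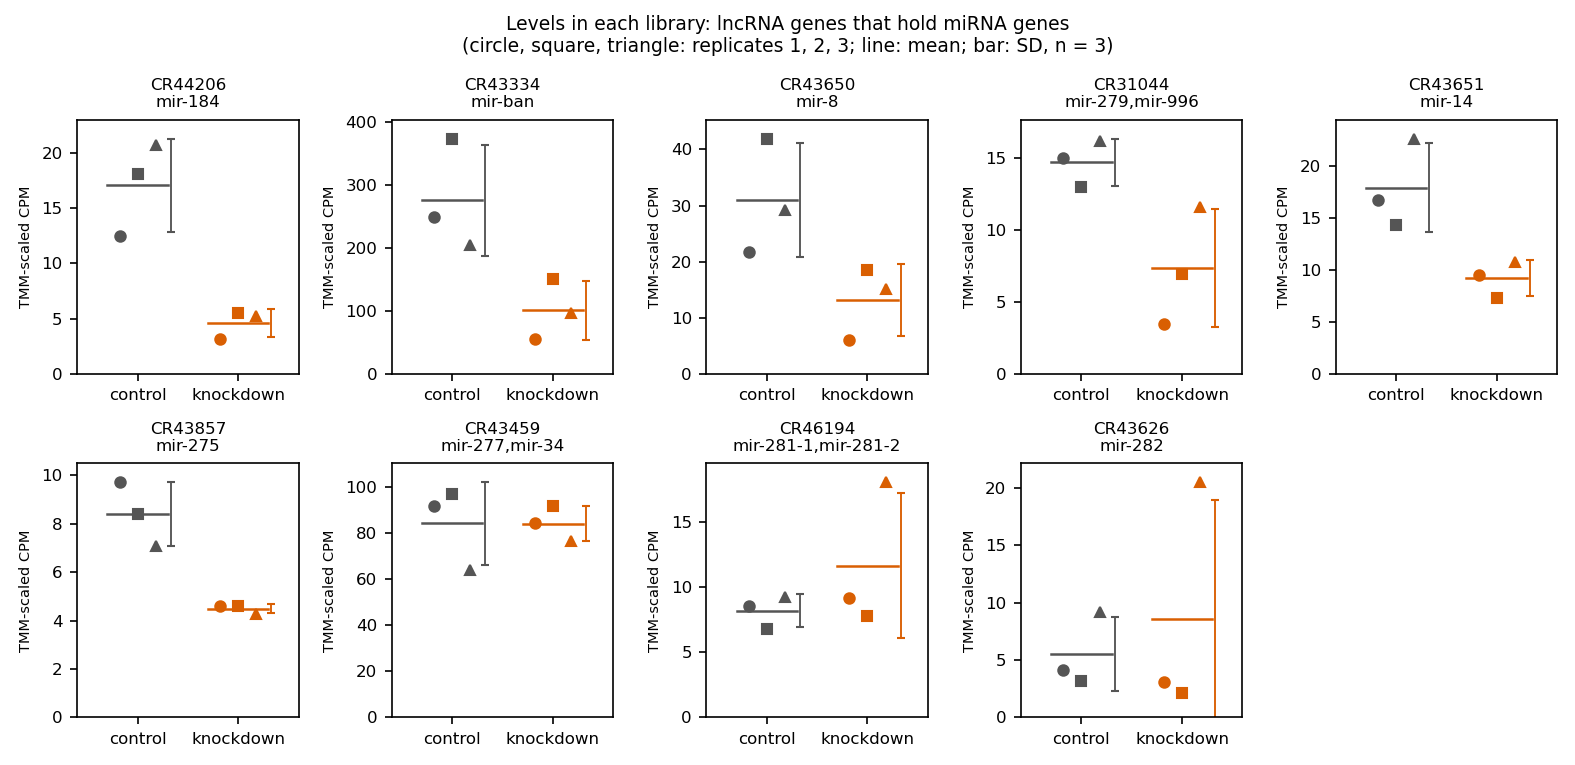
TMM-scaled CPM (vertical axes, linear, from 0) of the 9 lncRNA genes other than Hsromega that hold microRNA genes, named in the second line of each title; symbols are replicates 1, 2 and 3, lines are means and bars SD (n = 3, cut at 0 where they reach below it). CR44206, CR43334, CR43651 and CR43857 fell, whereas CR43459 was at 84.4 and 84.3 CPM.

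Only 2 of the 86 genes hold snoRNAs, 6 in all, of which 4 were tested. The pseudouridylation guide snoRNA:Psi18S-531, inside CR42491, rose from 4.79 ± 1.52 to 12.1 ± 4.92 CPM (log2 1.33, edgeR adjusted p = 0.0399). That call was lost without knockdown replicate 1 or 3 or control replicate 1 or 2 (0.086 to 0.129). Its host did not pass, at 107.2 ± 43.8 and 87.7 ± 10.9 CPM (log2 -0.29, adjusted p = 0.49), and shares 377 exonic bases with the ribosomal protein gene RpL22 on the same strand. The other 3 snoRNAs tested lie in CR45184 and had log2 fold changes of 0.52 to 1.39 that did not pass. CR45184 shares 2508 of its 2649 exonic bases with Sf3b3, a subunit gene of the U2 snRNP, and its value is uncertain. Of 8 genes for core snoRNP proteins, 0 passed edgeR's test, 0 had an unadjusted p under 0.05 and 0 passed in DESeq2 (median log2 fold change -0.00).

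Sorted by position, each class held both called and uncalled genes. The counts below stand beside 16.8% called of all features tested, 8.31% higher and 8.53% lower. Of 32 genes inside an intron of a protein-coding gene 6 rose and 4 fell. Another 26 host no microRNA or snoRNA, share no exonic base with a protein-coding gene and lie in none of its introns. Of these 26, 4 rose and 4 fell. They can still overlap a protein-coding gene, as CR46482 does with eIF4B in its intron. Of 7 genes with exon overlap on the opposite strand 2 rose and 0 fell, and of 9 with overlap on the same strand 1 rose and 1 fell. The 38 genes of 1 exon, which need no splicing as annotated, had 12 called (31.6%), and the 48 genes with more exons had 15 called (31.2%). Among the 64 genes that share no exonic base with another gene, whose counts are not open to that ambiguity, 10 rose and 11 fell. By chromosome, 3R had 4 increases and 0 decreases among 19 genes, and 3L had 3 increases and 6 decreases among 21. X had 4 increases and 2 decreases among 13 genes, 2L had 2 and 2 among 19, and 2R had 1 and 3 among 13. The 1 gene on chromosome 4 was not called. Counts per class were small, and no test was made between classes.

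The log2 fold changes of lncRNA genes inside introns were set beside those of the genes around them. Over 21 pairs on opposite strands Pearson's r between the log2 fold changes was 0.73 and Spearman's rho 0.65, and 16 pairs shared their sign. Over 11 pairs on the same strand r was 0.08 and rho 0.29, and 7 shared it. Over all 32 pairs, 4 had both genes called, and in each the direction was shared: plum rose with CR45226, and CG34031, Eip63E and l(1)G0196 fell with CR43967, CR45820 and CR43493. For 31 lncRNA genes that overlap no protein-coding gene, r with the nearest such gene was 0.55 and rho 0.53, but only 18 of the 31 pairs shared their sign. For nearest genes within 1 kb r was 0.40 and rho 0.28, and 9 of 18 pairs shared it. Of 6 of the 31 pairs with both genes called, 5 shared the direction, and the exception was Hsromega, beside which CG16791 fell (log2 -0.69, edgeR adjusted p = 0.022; 0.059 to 0.0824 without knockdown replicate 1 or 3 or control replicate 1 or 2). Pairs that share exonic bases gave r = -0.13 over 22 pairs, of which 12 shared their sign. These correlations are over gene pairs in the same 6 libraries, some genes enter more than 1 pair, and neighbours may share reads, since no source used here states how strand entered the counting. They are descriptions, and whether shared reads enter them was not tested.

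**Figure D5:**
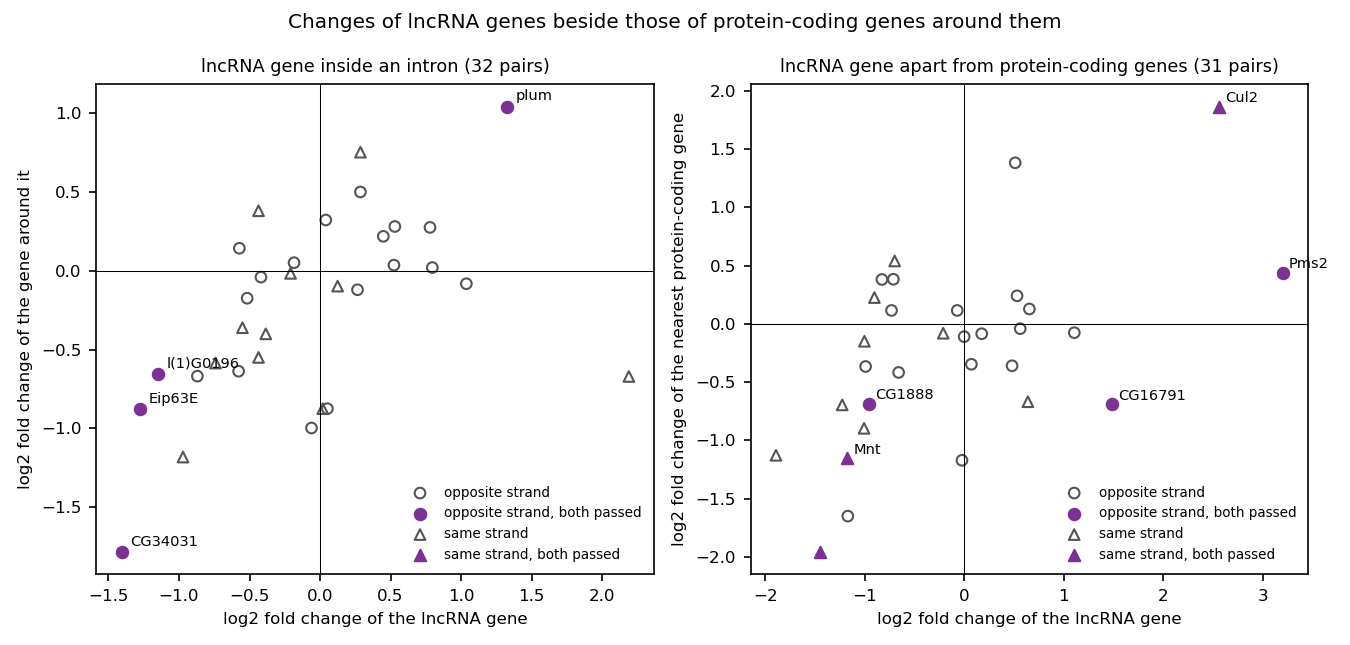
Log2 fold change of each lncRNA gene (horizontal axes) against that of the gene whose intron holds it (left, 32 pairs) or of the nearest protein-coding gene where none overlaps (right, 31 pairs); circles are opposite strands, triangles the same strand, and filled symbols are pairs in which both genes passed the test. The 4 filled pairs on the left share their direction, and of the 6 on the right only CG16791, beside Hsromega, lies across from its neighbour.

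The 59 genes that did not pass had log2 fold changes from -1.23 to 1.11, 25 above 0 and 34 below. In 14 of these 59 the groups did not overlap, beside 41.3% of all features tested, called or not. The abundant CR46489 was at 103.4 ± 24.2 and 112.6 ± 33.3 CPM (log2 0.12, SE 0.247). Besides CR43650, a replicate block added CR45365 (log2 -1.17 without the block, edgeR adjusted p with the block 0.0179), CR44809 (1.11, 0.0216), CR44612, CR44817, CR43266 and CR46472 (0.0309 to 0.045), so that 33 of the 86 genes passed, 17 higher and 16 lower. At the lower edge of the choice, CR43656 and CR44537 had means of 3.02 CPM and CR43973 one of 3.17 CPM without scaling. The lncRNA genes just outside were CR44830 at 2.99, CR43974 at 2.95 and CR44478 at 2.88 CPM.

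Among the called genes the knockdown libraries were ordered unevenly. Knockdown replicate 1 was the highest of its group in 11 of the 14 genes that rose and the lowest in 8 of the 13 that fell. Knockdown replicate 2 was the highest of its group in 8 of those 13. Over all 86 genes knockdown replicate 1 was the highest of its group in 32 and the lowest in 31, and knockdown replicate 2 the highest in 34. Control replicates 1, 2 and 3 were the highest of their group in 4, 7 and 3 of the genes that rose. In the genes that fell they were the highest in 5, 4 and 4. The RNA of Brr2 itself was at 108.5, 94.0 and 99.8 CPM in knockdown replicates 1, 2 and 3, so replicate 1 kept the most. Among 13 of 16 listed nuclear RNA decay genes found in the table, only the exosome subunit gene Mtr3 passed, as lower (log2 -0.96, edgeR adjusted p = 0.0241). Its call was lost without control replicate 1 or any 1 knockdown library (0.0526 to 0.0924), and with a replicate block Ski6, a further exosome subunit gene, passed as well, as higher (adjusted p = 0.042). Of 7 hemocyte markers He rose (log2 3.26) and Pxn fell (-2.75), and with a replicate block eater and Col4a1 passed as lower (adjusted p = 0.0363 and 0.0106). The list summed to 833 to 1320 CPM in control and 400.1 to 826.7 CPM in knockdown libraries. Most of that sum was Col4a1, at 929 ± 242 and 459 ± 209 CPM, while srp was at 107 ± 9.42 and 97.7 ± 16.5 CPM. Of 9 markers of other cells, which summed to 49.1 to 76.0 CPM and 92.1 to 132.6 CPM, 7 were tested and the germline gene aub rose (log2 2.03, edgeR adjusted p = 0.0191; 0.0671 without knockdown replicate 1 and 0.0755 without control replicate 2). The mean of aub went from 15.7 ± 8.66 to 64.2 ± 22.9 CPM. The germline genes vas and nos stayed under 1 CPM and did not pass (edgeR adjusted p = 0.93 and 0.512). The neuron marker elav was at 29.5 ± 3.62 and 23.2 ± 1.59 CPM and did not pass (edgeR adjusted p = 0.118). Whether any of these values enters the changes of the lncRNA genes was not tested.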

How the data were processed

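RNA of 6 libraries was analysed from the deposited table of estimated counts, whole numbers that the authors had not scaled between libraries. The submitters' processing notes name Trimmomatic, TopHat2 and BDGP6. No source used here names the counting tool, or says how strand and reads with several hits were handled. edgeR 4.0.16 in R 4.3.3 was run (glmQLFit, glmQLFTest, TMM, filterByExpr, no replicate block, Benjamini-Hochberg over all 14167 features tested), and the SE was derived from the F statistic. The level of 3 CPM used counts over column totals; all printed levels are TMM-scaled unless said otherwise. Genes were placed with the Ensembl release 115 annotation of BDGP6.54, a later release than the notes name, matched by identifier for all 86 genes; exonic length is that of the merged exons. The script was tested on simulated data. Alternatives were DESeq2 1.42.0, other scalings, no filter, gene rows only, a replicate block, other choices of members and each library left out.

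The members, gene lists and comparisons were chosen with earlier results of these data known. Genes were named by rule: the targeted gene, symbols other than a CR number, the called members with the 12 largest increases or 12 largest decreases, the 8 highest by CPM and by CPM per kb, the 3 on each side of the level, their overlapping or nearest genes, and list members that passed. The microRNA and snoRNA hosts, the last 2 increases, the last decrease, members gained with the block and examples from lists without a call were added after their values were seen. Groups share replicate numbers in the labels. Residuals about the group means had correlations of 0.160 to 0.317 for same-numbered libraries and of -0.229 to 0.051 for others. The replicate block therefore takes the numbers to pair the libraries, which rests on the data and not on a stated pairing. Calls not said to be with a block come from fits without it, which ignore this pairing. With the block 33 of the 86 lncRNA genes passed, and 8 calls changed. Libraries within a group differed by more than counting noise (a chi-square of at least 118 per degree of freedom). Pairs with control replicate 3 stood at 1353 and 1583, against 118 to 264 for the other pairs. Some neighbouring and listed genes are not reported here. Promoter motifs and repeats of sequence were not analysed here.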

Additional observations from a re-analysis of the deposited data

How the results depend on the processing

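All 27 called lncRNA genes kept their direction in every alternative run, and 7 of them (CR34335, CR43144, CR43967, CR44206, CR44458, CR45102 and CR45226) kept their call in every one. Of all features, 2385 passed, against 3750 in DESeq2, 1470 without a filter on low counts, 3868 with total counts only, 3456 with a replicate block and 761 to 2250 with a library left out. Of the lncRNA genes, 27 passed (14 higher, 13 lower), against 36 in DESeq2 and 28 with gene rows only. Without a filter 17 passed (10 higher, 7 lower), and Hsromega then had an adjusted p of 0.0698 and CR43334 one of 0.0789. With total counts only 36 passed (9 higher, 27 lower), and with upper quartile scaling, which shifted the median by 0.12, 27 did (16 higher, 11 lower). Leaving out a library gave 10 to 25, with 7 to 11 higher and 3 to 14 lower; the cause of these losses was not tested beyond the smaller number of samples. A level of 10 CPM left 35 genes, 16 of them called (8 higher, 8 lower); several reach that level through 1 group only, so this count partly follows from the changes. The replicate block gave 33 (17 higher, 16 lower) and changed the call of 8 of the 86 genes. With 3 libraries a group and SDs of 18.5% (knockdown) and 24.4% (control) of the mean at the median gene, small changes could not be detected.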

Other observations

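Of 458 lncRNA genes under 3 CPM that passed the filter on low counts, 50 rose (10.9%) and 15 fell (3.28%). Of all features tested, 8.31% were higher and 8.53% lower. The called share was 14.2%, beside 16.8% of all features, and the median log2 fold change was 0.12, beside 0.01. A low gene can pass the filter through the group in which it is high, so these counts describe the genes that passed and not all low lncRNA genes. Named after their values were seen, the most abundant of the called ones were CR43974, which rose from 1.28 ± 0.167 to 5.03 ± 1.24 CPM (log2 1.98, edgeR adjusted p = 0.00591), CR44478 (log2 1.57) and CR43956 (log2 1.18), which also rose, and CR44531, which fell (log2 -1.03). CR45483 rose from 0.910 ± 0.247 to 4.3 ± 0.838 CPM (log2 2.24). Without each library in turn CR43974 and CR45483 kept their calls; the others lost theirs without knockdown replicate 1 (adjusted p = 0.0513, 0.0519 and 0.151 for CR44478, CR43956 and CR44531), CR43956 also without knockdown replicate 3 or control replicate 1 (0.0552 and 0.0526), and CR44531 also without any other library but control replicate 3 (0.0901 to 0.132) and with a replicate block (0.0532). In CR43974, CR44478, CR43956, CR44531 and CR45483 the groups did not overlap, beside 41.3% of all features tested. They were picked among called genes, so this partly follows from the choice.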
